A study of Mus musculus with 4 samples.

Results

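The genes described here, 36 in number, are genes of the apoptosis machinery and include Gsdme, the gene of a pore-forming protein of lytic cell death. Their probes were taken by name, every probe of the arrays whose current gene symbol is one of the 36, which gave 69 of 41174 probes. The list of genes itself was drawn up with earlier results of these data known. Of the 36 genes, 32 passed the filter on dim probes, among 12244 genes that passed it in all. Gsdme is listed in the scanner files under its older name Dfna5.

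The RNA came from primary aortic smooth muscle cells of mice of the strain labelled C57LB/6. Cells of the genotype Atg7F/F SM22α-Cre+ (floxed Atg7 alleles) were compared with cells of the genotype Atg7+/+ SM22α-Cre+, so the Cre transgene was present in both, driven in smooth muscle by the SM22α promoter. Atg7 encodes the E1-like enzyme that autophagosome formation requires, and the study searched for expression differences between these genotypes. Cultures were kept in DMEM/F-12 plus 10% FBS (fetal bovine serum) and sampled between passage 4 and passage 10. The labels give no age of the animals, no passage of a particular sample and no treatment with a death stimulus. Each genotype had 2 biological replicates. The extract of each Atg7F/F replicate was hybridised with the Atg7+/+ extract of the same number on a pair of 2-colour Agilent arrays with exchanged dyes, 4 arrays in all. The labels do not say whether the replicates came from separate animals, so p-values measure only the spread between these samples.

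Apoptosis runs along a pair of routes that meet at the caspases. In the mitochondrial route, BH3-only proteins relieve or overcome the anti-apoptotic BCL-2 proteins, the effectors BAX and BAK open the outer mitochondrial membrane, and released cytochrome c assembles APAF1 and caspase-9 into the apoptosome. In the death receptor route, ligand-bound receptors recruit adaptors and caspase-8. Gasdermin E, the product of Gsdme, is cut by a caspase during apoptosis, and its freed N-terminal part makes pores in the plasma membrane, which turns apoptosis into lytic death.

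Gsdme stood out from the other members, on a list made with earlier results of these data known. Its transcript signal was higher in Atg7F/F cells on all 4 arrays, by 2.83-fold on average, whereas each of the 31 other measured members had a mean log2 ratio between -0.33 and 0.48. The Gsdme value rests on a single probe out of 4, and it did not pass the adjusted test. The probes are shown because they differ in whether they gave a signal. Each line has the first 30 of the probe's 60 bases as the files give them, all in lower case since no part is singled out. Positions are on mm9, chromosome 6, and the strand is that of the probe's match.
A_51_P460459, chr6:50150228-50150287, minus strand: tgtgctctgactcatgttacaatgagaatc
A_51_P498631, chr6:50157436-50157495, minus strand: atgctttaatgaacatattatgtctggggc
A_51_P311342, chr6:50158274-50158333, plus strand: ttcccaaataaaacaggaaaaccattagat
A_52_P633665, chr6:50210143-50210202, minus strand: tcaaggtggtctttttggctcagtatgaat

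A_51_P498631 is the probe that gave a signal. Its uncorrected mean spot intensity was 1409, 991, 1092 and 869 in the Atg7F/F channel of the 4 arrays, against 335, 456, 329 and 413 in the Atg7+/+ channel of the same arrays. Local background at this probe lay between 44 and 84 in the Atg7F/F channels. The Atg7F/F intensities all lay above the Atg7+/+ intensities, in whichever dye each extract was labelled. The other 3 probes were well above background in neither genotype on any array. A_51_P311342, for instance, had intensities of 84.8, 55.7, 81.9 and 55.1 in the Atg7F/F channel and 54.5, 86.3, 55.2 and 84.5 in the Atg7+/+ channel, which follow the dye and not the genotype. Its start lies 838 bases from that of A_51_P498631, on the opposite strand, while A_51_P460459 starts 7208 bases and A_52_P633665 starts 52707 bases away from it on its own strand. No annotation of mm9 was used here, so the exon or untranslated region under each probe is not stated.

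**Figure D1:**
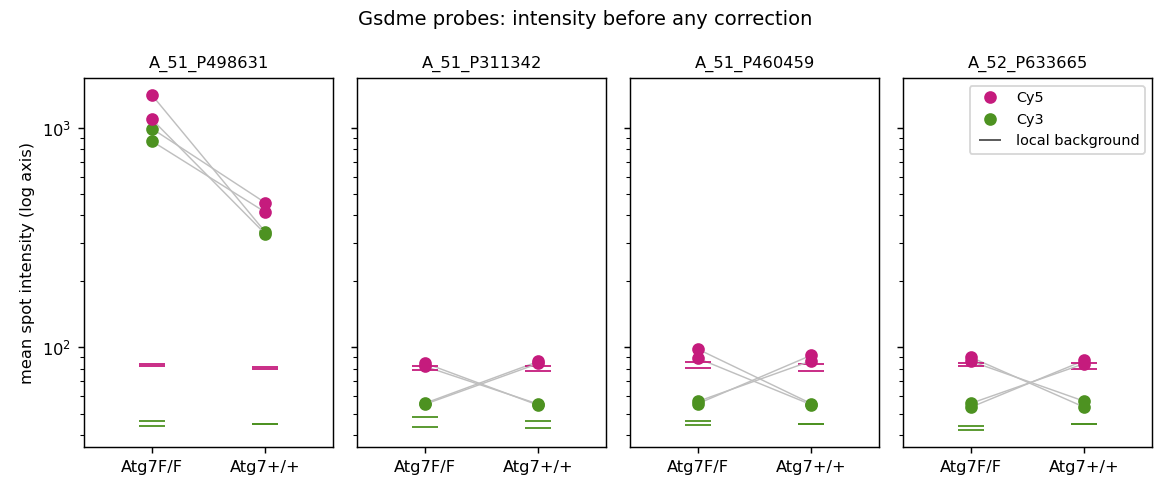
Mean spot intensity (log axis) of the 4 Gsdme probes in Atg7F/F (left in each panel) and Atg7+/+ (right), before any correction. Points are the 2 channels of each of the 4 arrays, joined by a line per array, coloured by dye, and short bars are the local background of each spot. At A_51_P498631 the Atg7F/F points lie between 869 and 1409 and the Atg7+/+ points between 329 and 456, while the other 3 probes lie near background.

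After background correction and normalization, the log2 ratio of Gsdme, Atg7F/F over Atg7+/+, was 1.58 and 1.62 on the arrays of replicate 1 and 1.26 and 1.56 on those of replicate 2. Its normalized log2 signal was 10.18 and 10.07 in the Atg7F/F extracts, against 8.58 and 8.67 in the Atg7+/+ extracts. The genotypes did not overlap, and the difference exceeded the spread between replicates. The mean log2 ratio was 1.50 ± 0.14 (SD, n = 2). Its adjusted p in limma was 0.895, from an unadjusted value of 4.75e-04. Gsdme was 1 of 8 tested genes, 0.0653%, with a ratio of at least 2-fold in Atg7F/F on every array, and it held place 8 of 12244 by mean ratio. When the 4 arrays were fitted with the dye-swapped pair as a random block, its adjusted p in limma was 0.0292, and it was the only member among the 10 genes, 0.0817% of those tested, that passed. Technical dye swaps of the same extracts enter that fit as separate arrays, with a consensus correlation of 0.475. The main test counts each pair once. The processing settings tried and the leaving out of either replicate gave mean log2 ratios between 1.41 and 1.74.

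Atg7, the targeted gene, was measured by 1 of its 2 probes. Its log2 ratio was -1.26 and -1.09 in replicate 1 and -0.96 and -1.57 in replicate 2, with a mean of -1.22 ± 0.07 (SD, n = 2) and an adjusted p of 0.943 in limma. The signal was therefore lower in the Atg7F/F channel of every array, as the labels imply, although Atg7 missed the adjusted threshold as well. Over all 12244 tested genes, 0 passed it, which is 0%, while unadjusted p-values below 0.05 were found for 165 genes with a higher ratio, 1.35%, and 201 with a lower one, 1.64%. The share of spots well above background was 43.3% to 45.5% per channel, and 0 spots were saturated. The ratios of replicates 1 and 2 correlated at -0.099 across the 12244 genes, which are not independent of each other. Of the smooth muscle markers 10 of 11 were measured, with a mean log2 signal between 12.63 and 12.93 in Atg7F/F extracts and between 12.78 and 12.86 in Atg7+/+ extracts. Among the markers of other cell types, 9 of 12 endothelial genes were lower in Atg7F/F on all 4 arrays, beside 9.95% of all tested genes. The mean log2 signal of the 12 was 8.88 to 8.99 in Atg7F/F extracts, against 9.10 to 9.41 in Atg7+/+ extracts. The neural and Schwann list, with 5 of 7 genes measured and Gfap among those below the filter, had 9.97 to 10.02 in Atg7F/F extracts and 9.58 to 9.60 in Atg7+/+ extracts. Of its measured genes, 2 were higher in Atg7F/F on all 4 arrays, beside 10.6% of all tested genes, and 3 had mixed signs. Of the macrophage and leukocyte list 5 of 10 were measured, with Ptprc, Adgre1 and Itgam among those below the filter. The measured ones had a mean log2 signal of 7.91 to 8.19 in Atg7F/F extracts and 8.09 to 8.12 in Atg7+/+ extracts. On all 4 arrays 1 was higher in Atg7F/F, beside 10.6% of all tested genes, and 2 were lower, beside 9.95%. The adventitial fibroblast list, with 8 of 9 measured, had a median log2 ratio of -0.31 in replicate 1 and 0.51 in replicate 2. Lists of adipocyte, epithelial and mesothelial, and cycling-cell markers are not reported here. In this bulk RNA, fewer cells of a type and less RNA per cell cannot be told apart, and the part of other cell types in the members' values was not tested.

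Among the 32 measured members, 0 passed limma's adjusted test, 1 had an unadjusted p below 0.05 with a higher ratio (Gsdme), beside 1.35% of all tested genes, and 2 with a lower ratio (Fas and Diablo), beside 1.64%. Higher on all 4 arrays were 4 members, Gsdme, Casp6, Tnfrsf10b and Casp2, beside 10.6% of all tested genes. Lower on all 4 arrays were 3, Fas, Diablo and Bak1, beside 9.95% of all tested genes. As shares of the measured members these sign counts are 12.5% and 9.38%, near the shares over all genes. The median log2 ratio of the measured members was 0.042, against 0.003 over all tested genes.

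**Figure D2:**
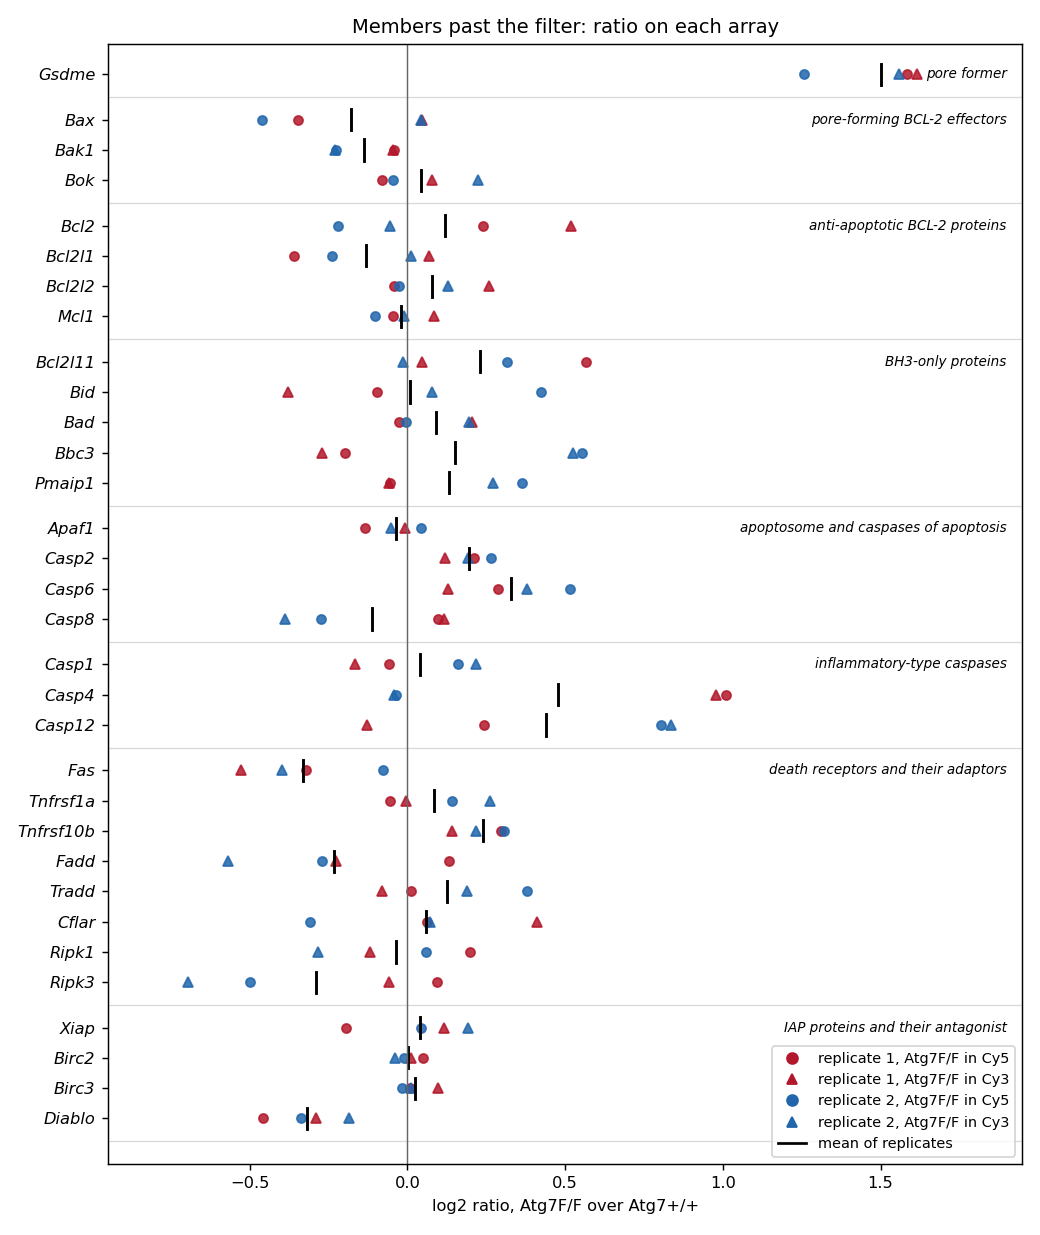
Log2 ratio of Atg7F/F over Atg7+/+ on each of the 4 arrays for the 32 measured members, by role. Colours are replicates, symbols the dye of the Atg7F/F extract, and black bars the mean of the 2 replicates. Gsdme lies between 1.26 and 1.62, while Casp4 and Casp12 have a high ratio in 1 replicate each.

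The effectors that open the mitochondrial outer membrane had ratios close to 0. Bak1 had a log2 ratio of -0.04 and -0.05 in replicate 1 and -0.23 and -0.23 in replicate 2, a mean of -0.14 ± 0.13 (SD, n = 2). All 4 values were below 0, and the SD was about as large as the mean. A second Bak1 probe had a mean of -0.05. Bax had a mean of -0.18 ± 0.04, but its sign followed the dye: -0.35 and -0.46 with Atg7F/F in Cy5, against 0.05 and 0.04 with Atg7F/F in Cy3. Bok, a relative of Bax and Bak1, had a mean of 0.04 ± 0.06 and likewise changed sign with the dye. By the brightest probe of each gene, 6 members changed sign with the dye in both replicates (Bax, Bok, Bcl2l1, Bcl2l2, Bad and Ripk1), as did 13.9% of all tested genes.

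By the brightest probe of each, the 4 anti-apoptotic genes had mean log2 ratios between -0.13 and 0.12, and none had the same sign on all 4 arrays. Bcl2, the founding member of the family, had 0.24 and 0.52 in replicate 1 and -0.22 and -0.06 in replicate 2. At this probe, the brighter of 2 past the filter, the replicates thus pointed in opposite directions, with a mean of 0.12 ± 0.37. The other Bcl2 probe was higher on all 4 arrays. It had 0.41 and 0.23 in replicate 1 and 0.17 and 0.04 in replicate 2, a mean of 0.21. Bcl2l1, which encodes BCL-XL, had a mean of -0.13 ± 0.02, Bcl2l2, which encodes BCL-W, 0.08 ± 0.04, and Mcl1, whose protein is short-lived, -0.02 ± 0.06. A dimmer Bcl2l1 probe was lower on all 4 arrays, with a mean of -0.07, and another had mixed signs and a mean of -0.04.

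Of the 8 BH3-only genes, 5 were measured, and none had the same sign on all 4 arrays. All 5 had means above 0, as did 6294 of the 12244 tested genes. Their median log2 ratio was -0.06 in replicate 1 and 0.25 in replicate 2. Bbc3, which encodes PUMA, a p53 target, had a log2 ratio of -0.20 and -0.27 in replicate 1 and 0.55 and 0.53 in replicate 2. Exchanged dyes gave close values within a replicate, so the replicates differed by more than the dye swap did. Its normalized log2 signal was 10.58 and 11.66 in the Atg7F/F extracts, against 10.81 and 11.12 in the Atg7+/+ extracts. The lowest and the highest of these 4 signals both belong to Atg7F/F. Pmaip1, which encodes NOXA, another p53 target, followed the same pattern at a smaller size, with -0.05 and -0.06 in replicate 1 and 0.36 and 0.27 in replicate 2. Bcl2l11, which encodes BIM, had a mean of 0.23 ± 0.11. Its ratios were 0.57 and 0.31 with Atg7F/F in Cy5, against 0.05 and -0.01 with Atg7F/F in Cy3. A second Bcl2l11 probe had a mean of 0.01. Bad, whose protein binds BCL-XL, had a mean of 0.09 ± 0.01, and Bid, whose protein links the receptor route to mitochondria once caspase-8 has cut it, had 0.01 ± 0.34. Bik, Bmf and Hrk did not pass the filter. Their 5 probes were not well above background on all arrays in either genotype, so these genes have no ratio here.

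Among the caspases of apoptosis and their scaffold, Casp6 and Casp2 were higher on all 4 arrays. Casp6, an effector caspase, had a log2 ratio of 0.29 and 0.13 in replicate 1 and 0.51 and 0.38 in replicate 2. Its normalized log2 signal was 10.83 and 11.17 in the Atg7F/F extracts, against 10.62 and 10.72 in the Atg7+/+ extracts, which do not overlap. The mean ratio was 0.33 ± 0.17 (SD, n = 2), with an adjusted p of 1.00 in limma. Casp2, an initiator caspase of stress responses, had 0.21 and 0.12 in replicate 1 and 0.26 and 0.19 in replicate 2, a mean of 0.20 ± 0.04. Its extract signals overlapped between the genotypes, at 10.28 and 10.61 in Atg7F/F and 10.11 and 10.38 in Atg7+/+, since replicate 2 was the higher of the replicates in both. Casp8, the initiator of the receptor route, had 0.10 and 0.12 in replicate 1 and -0.28 and -0.39 in replicate 2, so the replicates disagreed in sign. Apaf1, the scaffold of the apoptosome, had a mean of -0.04 ± 0.05. Casp9, which the apoptosome activates, did not pass the filter and has no ratio here.

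Non-overlapping extract signals were found for 3 members with higher signals in Atg7F/F (Gsdme, Casp6 and Bad) and for 2 with lower ones (Diablo and Apaf1). Over all tested genes the shares were 11.4% and 10.1%, so these counts are no larger than the background. The groups were barely apart for Apaf1, with 7.436 and 7.494 in Atg7F/F against 7.507 and 7.498 in Atg7+/+. The same held for Bad, with 6.939 and 7.021 against 6.852 and 6.925. Both genes had mixed signs over the 4 arrays.

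**Figure D3:**
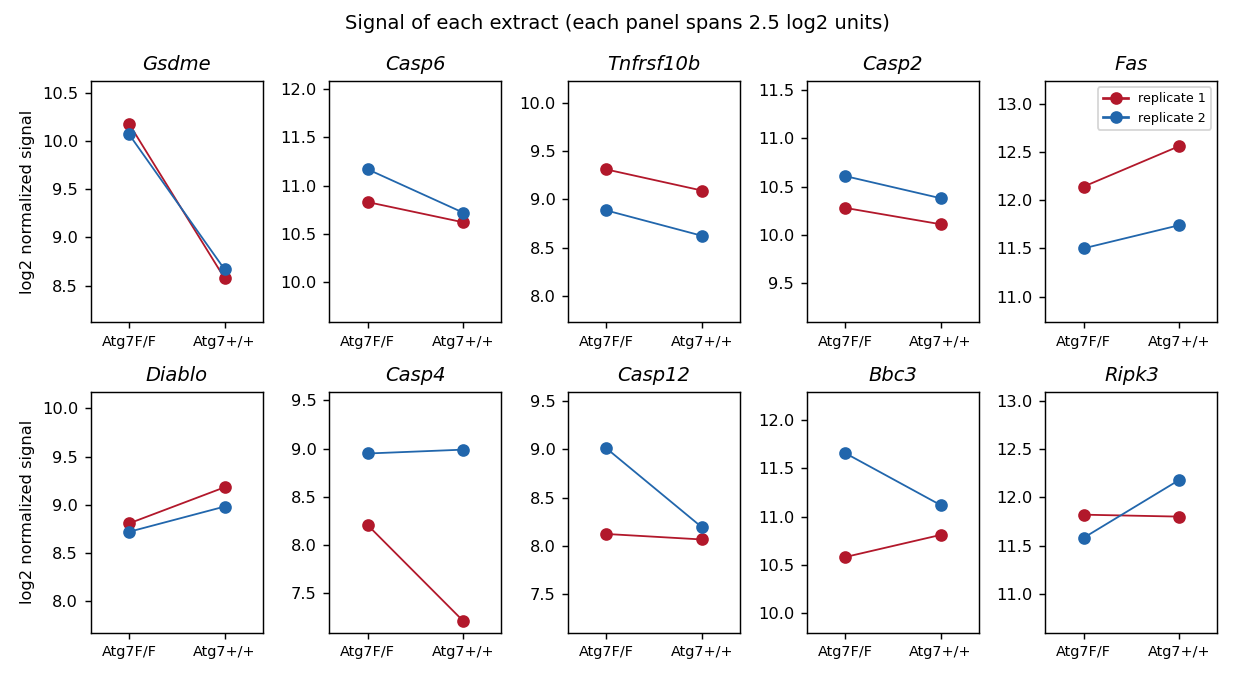
Normalized log2 signal of each extract, Atg7F/F left and Atg7+/+ right, for 10 members, with a line for each replicate pair. Every panel spans the same number of log2 units. For Gsdme, both Atg7F/F extracts lie above both Atg7+/+ extracts. For Casp4 the Atg7+/+ extracts differ most from each other, at 7.21 in replicate 1 and 8.99 in replicate 2.

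Casp4 and Casp12, of the inflammatory-type caspases, differed widely between replicates, and the gap of Casp4 was the largest among the measured members. Casp4, which encodes the mouse caspase-11 that binds bacterial lipopolysaccharide, had a log2 ratio of 1.01 and 0.98 in replicate 1 and -0.04 and -0.04 in replicate 2. Its normalized log2 signal was 8.21 and 8.95 in the Atg7F/F extracts, against 7.21 and 8.99 in the Atg7+/+ extracts. The Atg7+/+ extract of replicate 1 was the low one, and the other 3 lay within a narrower range. Casp12, a caspase linked in mice to endoplasmic reticulum stress, had 0.24 and -0.13 in replicate 1 and 0.80 and 0.84 in replicate 2. Its signal was 8.12 and 9.01 in the Atg7F/F extracts, against 8.07 and 8.19 in the Atg7+/+ extracts. Here the Atg7F/F extract of replicate 2 was the high one. The means of Casp4, 0.48 ± 0.73, and Casp12, 0.44 ± 0.54 (SD, n = 2), were the largest after Gsdme, and each had an SD larger than its mean and an adjusted p of 1.00 in limma. Without replicate 1 the Casp4 ratio is -0.04, and without replicate 2 that of Casp12 is 0.06. Casp1, the caspase of inflammasomes, had a mean of 0.04 ± 0.21. The probes of Casp1, Casp4 and Casp12 lie side by side on chromosome 9 of mm9, at chr9:5306226-5306728, chr9:5336645-5336704 and chr9:5372258-5372317. The higher ratio was in replicate 1 for Casp4 and in replicate 2 for Casp1 and Casp12. The extract signals of all 3 were higher in replicate 2 than in replicate 1 in both genotypes. Those of Casp1 were 7.58 and 8.33 in Atg7F/F and 7.69 and 8.14 in Atg7+/+.

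**Figure D4:**
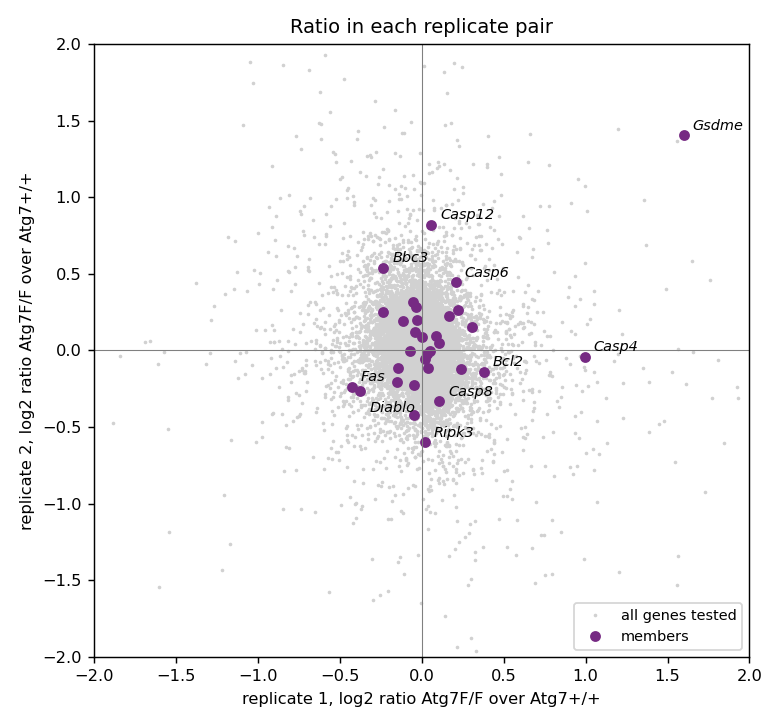
Log2 ratio of Atg7F/F over Atg7+/+ in replicate 1 (horizontal) and replicate 2 (vertical) for all tested genes (grey) and the 32 measured members (purple), with 33 genes beyond the axes. Gsdme is far from 0 in both replicates, Casp4 in replicate 1 and Casp12, Bbc3 and Ripk3 in replicate 2.

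The death receptors did not move together. Fas, the receptor of FAS ligand, had a log2 ratio of -0.32 and -0.53 in replicate 1 and -0.08 and -0.40 in replicate 2, with a mean of -0.33 ± 0.13 (SD, n = 2). Its adjusted p in limma was 1.00, from an unadjusted value of 0.041. Its normalized log2 signal was 12.14 and 11.50 in the Atg7F/F extracts, against 12.56 and 11.74 in the Atg7+/+ extracts, so it was lower within each pair while the groups overlapped. Tnfrsf10b, the receptor of TRAIL, had 0.30 and 0.14 in replicate 1 and 0.31 and 0.22 in replicate 2, with a mean of 0.24 ± 0.03. Its extract signals also overlapped between genotypes, at 9.31 and 8.89 in Atg7F/F and 9.09 and 8.62 in Atg7+/+. The other 2 Tnfrsf10b probes past the filter had means of 0.03 and 0.05. Tnfrsf1a, a receptor of TNF, had a mean of 0.09 ± 0.16.

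Of the adaptors and kinases below the receptors, none had the same sign on all 4 arrays. Ripk3, the kinase of necroptosis, had a log2 ratio of 0.09 and -0.06 in replicate 1 and -0.50 and -0.70 in replicate 2. Its mean of -0.29 ± 0.44 was the lowest after Fas and Diablo, and it came from replicate 2, where the normalized log2 signal was 11.58 in the Atg7F/F extract and 12.18 in the Atg7+/+ extract. Fadd, the adaptor that binds caspase-8, had a mean of -0.23 ± 0.26, and its second probe had -0.07. Tradd, the adaptor of the TNF receptor, had 0.12 ± 0.23, Ripk1, a kinase recruited to it, -0.04 ± 0.11, and Cflar, whose protein FLIP restrains caspase-8, 0.06 ± 0.25. The 3 Cflar probes past the filter differed in sign, with means of 0.06, -0.06 and -0.18, and their gap of 0.24 was the largest among the 11 members with several probes past the filter.

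The IAP proteins restrain caspases or mark them and their partners with ubiquitin, and DIABLO, also called SMAC, leaves the mitochondria to block them. Diablo had a log2 ratio of -0.46 and -0.29 in replicate 1 and -0.34 and -0.19 in replicate 2, with a mean of -0.32 ± 0.08 (SD, n = 2). Its adjusted p in limma was 1.00, from an unadjusted value of 0.035. Its normalized log2 signal was 8.81 and 8.72 in the Atg7F/F extracts, against 9.18 and 8.98 in the Atg7+/+ extracts. All 4 ratios were below 0 and the genotypes did not overlap. The IAP genes themselves had means close to 0, with 0.04 ± 0.11 for Xiap, 0.00 ± 0.04 for Birc2 and 0.02 ± 0.04 for Birc3. Their mean log2 signals in Atg7F/F were 7.35, 6.69 and 7.79, against 9.17 to 9.19 over all tested genes. The background correction used pulls ratios of such dim spots towards 0. With the scanner software's processed signals the ratios were 0.11 for Xiap, -0.07 for Birc2 and 0.02 for Birc3. A second probe of each of Birc2, Birc3, Fas and Diablo was at background, so these values rest on 1 probe each. Of the 3 probes of Xiap, and of the 3 of Apaf1, likewise only 1 passed the filter.

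Across roles, many members differed in sign between the replicates, each gene being read from its brightest probe. For 17 of the 32 measured members the ratios of replicates 1 and 2 had opposite signs, beside 54.5% of all tested genes. For 9 of them (Bbc3, Bcl2, Bid, Birc2, Casp1, Casp4, Casp8, Pmaip1 and Tnfrsf1a) the sign was the same on both arrays of a replicate and opposite in the other, beside 26.7% of all tested genes. The replicate ratios of Casp4, Casp12, Bbc3, Ripk3 and Bcl2 were at least 0.5 log2 units apart, 5 of 32 members, beside 12.6% of all tested genes. All of these shares are close to those over all genes.

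Other genes of cell death, 66 in number, were set beside the members. Of these 49 were measured. On all 4 arrays 6 were higher in Atg7F/F, beside 10.6% of all tested genes, and 6 lower, beside 9.95%. In limma 0 passed the adjusted test. An unadjusted p below 0.05 was found for 0 with a higher ratio, beside 1.35%, and for 1 with a lower one, Traf1, beside 1.64%. The median log2 ratio of the 49 was -0.018. Gsdmd, the gasdermin cut by the inflammatory caspases, had -0.20 and -0.17 in replicate 1 and -0.26 and -0.38 in replicate 2, a mean of -0.25 ± 0.10. The sign of Gsdmd was thus opposite to that of Gsdme on every array. The lowest means among the genes with the same sign on all 4 arrays were those of Traf1, an adaptor of TNF receptors, at -0.34 ± 0.17, of Gsdmd, and of Mlkl, the pore former of necroptosis, at -0.21 ± 0.05. The highest were those of Bnip3l, a mitochondrial receptor of autophagy, at 0.32 ± 0.27, and Endog, a mitochondrial nuclease, at 0.17 ± 0.10. The adjusted p in limma was 1.00 for Gsdmd, Traf1, Mlkl, Bnip3l and Endog.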

How the data were processed

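The submitters' processing notes name Agilent Feature Extraction 10.1.1.1 for the 4 arrays of 2 colours. As deposited, the scanner files give each channel's mean spot intensity and local background intensity, not normalized, per the file headers. The authors' value table has log2 ratios whose direction proved to be Atg7F/F over Atg7+/+ throughout: 100% of the compared probes matched the software's processed signals within 0.001, with column medians of 0.199, -0.0939, 0.0809 and -0.0371.

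Intensities were corrected with normexp (offset 50, which pulls ratios of dim spots towards 0) and loess within each array in limma 3.58.1 (R 4.3.3). Probes with outlier flags (35) were left out. A probe passed if well above background in at least 1 genotype on all 4 arrays (17110 probes). Of 41174 probes, 25097 were named through RefSeq accessions and 1640 through an older symbol. The brightest probe stood for a gene. Dye-swapped arrays were averaged to 1 replicate, so n = 2, and ratios were tested against 0 with lmFit and eBayes (3.17 degrees of freedom, 2.17 from the prior), two-sided, with Benjamini-Hochberg adjustment over all 12244 genes and a threshold of 0.05. Every adjusted p given is limma's. With 2 replicates, exact sign flips allow no p below 0.5. The code was tested on simulated data. Pairing comes from the hybridisation of same-numbered extracts together, which deviated from the mean of their genotype with a correlation of 0.176 over genes. The number of arrays limits the precision.

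The members, the gene lists, the tests and the rule for named genes were chosen with earlier results of these data known. The rule gives values on each array for Gsdme, for members with the same sign on all 4 arrays, for members whose probes differ by 0.5 or more, which none did, and for the 3 largest means in each direction. Of the other cell death genes it names the 3 highest and 3 lowest means among those with the same sign on all 4 arrays, and Gsdmd. Not every gene that the rule names is reported here. Per-array values of Bbc3, Bcl2, Bcl2l11, Pmaip1, Casp8 and Bax were added after their values were seen. Alternatives covered background correction, normalization, the deposited table, the filter, the choice of probe, the block and each replicate left out.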

Additional observations from a re-analysis of the deposited data

How the results depend on the processing

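With the dye-swapped pair as a random block, 10 genes passed limma's adjusted test and 1 member did, Gsdme. With no replicate block, the extracts being unpaired, 1 gene passed and it was no member. Counts of 0 held for the members and the other cell death genes under the processing settings tried. With median centring in place of loess, 2 members were higher and 1 was lower on all 4 arrays. The members' median log2 ratio was 0.0564 with no normexp offset, 0.0470 with no background subtraction, 0.0455 both with the scanner software's processed signals and with the deposited table, and 0.0927 with median centring, which put the median of all genes at 0.0424. Among members with a mean beyond 0.1 in size, some moved by over 1.5 times without a change of sign. Processed signals and the deposited table gave 0.44 for Bcl2l11, -0.26 for Bcl2l1, 0.73 for Casp4 and -0.36 for Fadd. Median centring gave -0.05 for Bak1, -0.08 for Bax, 0.24 for Bbc3, -0.06 for Casp8, 0.21 for Pmaip1 and 0.21 for Tradd. The mean of a gene's probes gave 0.12 for Bcl2l11, -0.08 for Bcl2l1, -0.15 for Fadd and 0.11 for Tnfrsf10b. The cause was not tested. With either replicate left out, 11 to 12 members were higher and 9 to 10 lower on both remaining arrays, the members' median was 0.0184 to 0.0235, and no test was possible for want of residual degrees of freedom. The sign of the mean changed for 5 members without replicate 1, Casp4 among them, and for 12 without replicate 2. Under the other settings it changed for at most 2, none of them with a mean beyond 0.06. Dim probes limit what can be seen: the probes of Bik, Bmf, Hrk and Casp9 and 3 of the 4 Gsdme probes were well above background on all 4 arrays in neither genotype.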
